A study of Mus musculus with 2 samples.

Results

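The 10 imprinted growth genes described here are *Igf2*, *H19*, *Cdkn1c*, *Igf2r*, *Meg3*, *Dlk1*, *Mest*, *Grb10*, *Peg3* and *Plagl1*, taken by name from the 55413 genes that GENCODE M21 annotates on chromosomes 1 to 19, X and Y of the mouse genome (mm10). Open chromatin was examined within 1 kb of every annotated start of these genes, in each gene body with 50 kb on each side (called the locus below), and along the interval between *Igf2* and *H19*. The data are ATAC-seq peak lists, in which a transposase inserts sequencing adapters into accessible DNA. A single group was profiled, namely whole hearts of wildtype (WT) FVB mouse embryos at E11.5, staged at 49 to 51 somites, in 2 replicates made from pairs of hearts with about 50000 cells each. There is therefore no comparison between conditions, and each value is given in both replicates in place of a test.

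Genomic imprinting restricts the expression of a gene to the copy inherited from one parent. The choice of copy is carried by DNA methylation placed in the germline at imprinting control regions, which the zinc finger protein ZFP57 helps to keep methylated in the embryo and at which CTCF can bind the unmethylated copy. Many imprinted genes act on prenatal growth, with paternally expressed genes such as *Igf2* often promoting it and maternally expressed genes such as *Igf2r*, *Cdkn1c* and *H19* often restraining it. The peak lists do not separate the parental copies, so a peak may stem from either copy or from both, and in a whole heart a low value may come from few open cells or from weak opening in many.

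Replicate 1 held 118027 peaks and replicate 2 held 114783. A shared region is the part of a replicate 1 peak covered by a replicate 2 peak, and 98850 of these were found on the main chromosomes. Fold enrichment, the unit used throughout, divides the read pileup at the summit of a peak by the background expected across the genome, each raised by 1. It moved in steps worth 1 read, 0.272 in replicate 1 and 0.251 in replicate 2, and the lowest summits held 9 reads in each. Over all shared regions the ratio of replicate 1 to replicate 2 had a median of 1.08, and 95% of ratios lay between 0.555 and 1.91. The label of the tissue was checked with marker genes. A shared region stood at a start of 8 of 8 heart muscle, 4 of 4 endothelial, 3 of 3 epicardial and 2 of 2 blood markers. It also stood at 4 of 7 markers of other organs, so a region at a start did not by itself mark a gene of the heart.

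Chromatin was open at a start of all 10 genes in both replicates. All 8 protein-coding members had a shared region within 1 kb of a start, beside 67.6% of all 21938 protein-coding genes. Both lincRNA members, *H19* and *Meg3*, had one as well, beside 25.5% of 5854 lincRNA genes. Counted by distinct start, 46 of 60 starts of the protein-coding members had a shared region, beside 58.0% of such starts in the genome, and 12 of 18 starts of *H19* and *Meg3*, beside 26.1% of lincRNA starts. Of the 20 starts without a shared region, 17 had no peak in either replicate.

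The highest region at a start differed widely between the genes. *Peg3* was the highest, at 43.7 in replicate 1 and 40.7 in replicate 2. *Cdkn1c* followed with 27.2 and 33.4, *Grb10* with 23.9 and 25.6, *Igf2r* with 21.2 and 23.4 and *Plagl1* with 22.5 and 18.6. The start regions of these 5 genes lay above 16.1, the median of the 20831 shared regions at protein-coding starts. *H19* lay at that median with 16.8 and 15.3, and *Igf2* below it with 14.1 and 12.1. *Mest* (8.42 and 7.29), *Dlk1* (7.06 and 8.55) and *Meg3* (7.88 and 7.54) were the lowest, at the 26.2 to 26.9 percentiles of regions at protein-coding starts. In this order the replicate ranges of *Igf2r* and *Plagl1* overlapped, as did those of *Mest* and *Dlk1* and those of *Dlk1* and *Meg3*. The other 6 of 9 neighbouring pairs did not overlap.

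**Figure D1:**
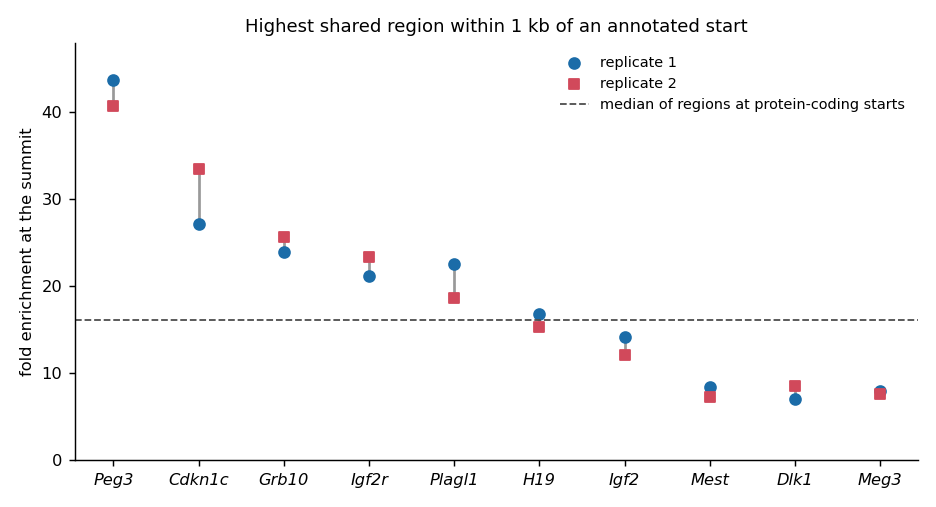
Fold enrichment of the highest shared region within 1 kb of an annotated start of each gene (y axis, pileup over background), with replicate 1 as circles and replicate 2 as squares. The dashed line is the median of regions at protein-coding starts, 16.1; *Peg3* stands highest at 43.7 and 40.7, and *Mest*, *Dlk1* and *Meg3* lie below 9.

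*Igf2* encodes a growth factor of the fetus that is expressed mainly from the paternal copy. The gene (ENSMUSG00000048583.16, chr7:142650766-142666816, minus strand) has 9 annotated starts, of which 7 had a shared region. In replicate 1 its promoters were covered by a peak from 142655713 to 142658308 with a fold enrichment of 14.1, one from 142658457 to 142660189 with 13.04, and one from 142660350 to 142661006 with 4.07. In replicate 2 they were covered by a peak from 142655721 to 142656822 with 9.55 and a wide one from 142657206 to 142661192 with 12.1. The replicates thus divided the same stretch of open chromatin differently, and the fold enrichment of a shared region here belongs to the peak that covers it, whose summit may lie in the next region. Both replicates placed a summit close to the start of *Igf2*-205, at 142659516 in replicate 1 and 142659434 in replicate 2. *Igf2os*, an antisense RNA, starts in the same stretch, and the microRNA gene *Mir483* starts near the region at *Igf2*-209, so the regions cannot be assigned to 1 gene. No peak was found at the outermost start, that of *Igf2*-203, in either replicate, and at *Igf2*-208 replicate 1 had a peak of 4.07 and replicate 2 had none. The body also overlaps *Gm49394*, a protein-coding gene without a shared region at a start in the locus.

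*H19*, a long noncoding RNA expressed from the maternal copy, lies downstream of *Igf2* on the same strand (ENSMUSG00000000031.16, chr7:142575529-142578143). All 7 of its starts had a shared region, and the highest, from 142577766 to 142578988, spans the outermost start with summits 128 bp apart. The small RNA genes *Mir675*, *Gm27786* and *Gm27483* lie inside *H19* and share these regions. A second region, from 142574203 to 142575766 at the 3′ end of *H19*, had 13.3 and 11.6. Tissue enhancers used by both *H19* and *Igf2* have been described downstream of *H19*, and the 10 kb beyond its 3′ end held 8 shared regions, including the one at that end, and their fold enrichments ran between 4.07 and 13.3 in replicate 1, against 3.27 to 11.6 in replicate 2. Of these 8 regions, 2 held a GATA match (AGATAA) and 2 a TEAD match (GGAATG) in 300 bp at their summits, beside 22.2% and 20.4% of all shared regions. Here and below, that window is centred on the midpoint between the replicate summits and can reach beyond the shared region. Both summits lay inside the region for 164 of the 214 regions of the 10 loci. Farther downstream, the start of *Mrpl23*, a gene of the mitochondrial ribosome, had 16.6 and 19.1.

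The interval between the *H19* and *Igf2* bodies spans 72.6 kb (chr7:142578144-142650765). It held 6 peaks in replicate 1 and 7 in replicate 2, which gave 6 shared regions. The first of these was the *H19* start itself. The next stood 2.3 kb upstream of the *H19* start (142580068 to 142580955) with 7.06 and 10.1, and another 3.8 kb upstream (142581812 to 142582067) with 6.25 and 5.53. The highest of the interval stood 33.1 kb upstream of *H19*, from 142610519 to 142611973, with 28.0 and 28.2. Replicate summits of that region lay at 142611285 and 142611247, inside the predicted gene *Gm33148*. Closer to *Igf2*, a region 5.6 kb beyond the 3′ end of that gene had 11.1 and 12.1, and one 0.5 kb beyond it had 9.51 and 7.04. The one peak that was not shared, in replicate 2, stood 8.92 kb upstream of *H19* with 4.02.

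CTCF sites upstream of *H19* are known to insulate *Igf2* from the enhancers beyond *H19* on the maternal copy. The short form of the CTCF motif used here, GGNGGCAG searched on both strands, occurred 30 times in the interval, and 7 of the matches lay in shared regions. Within 10 kb upstream of *H19* there were 8 matches, and 4 of them lay in the pair of regions at 2.3 and 3.8 kb. In 300 bp at the summits, 13.6% of all shared regions held a match, and so did 29 of the 214 regions of the 10 loci, also 13.6%. The share differed between loci, with 6 of 20 regions in the *H19* locus (30.0%), 4 of 14 in that of *Igf2* (28.6%), which shares 1 region with it, 4 of 11 at *Cdkn1c* (36.4%) and 0 of 9 at *Dlk1* and 0 of 13 at *Mest*. For the regions starting at 142650834 and 142655721 at *Igf2* and at 143466280 at *Cdkn1c*, the match lay in the window but outside the region. The stretches below are GRCm38 reference sequence, plus strand, of C57BL/6J mice and not of FVB. They are shown because their matches (capitals, on the minus strand) stand in the regions upstream of *H19*. The first is chr7:142580163-142580462 and the second chr7:142581812-142582067, and both summits of each region lie inside.
H19 near: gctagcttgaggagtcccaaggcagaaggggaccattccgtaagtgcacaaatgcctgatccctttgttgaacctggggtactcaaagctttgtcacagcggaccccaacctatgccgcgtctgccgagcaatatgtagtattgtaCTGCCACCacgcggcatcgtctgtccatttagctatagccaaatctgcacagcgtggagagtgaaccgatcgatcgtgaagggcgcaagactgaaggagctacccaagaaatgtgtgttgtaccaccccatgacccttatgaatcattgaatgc
H19 far: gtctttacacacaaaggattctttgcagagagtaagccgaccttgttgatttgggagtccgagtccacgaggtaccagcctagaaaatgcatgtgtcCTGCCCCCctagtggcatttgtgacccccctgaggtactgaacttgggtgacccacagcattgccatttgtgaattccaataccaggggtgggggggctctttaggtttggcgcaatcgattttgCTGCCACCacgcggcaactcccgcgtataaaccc

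The region 33.1 kb upstream of *H19* exceeded the start regions of both *H19* and *Igf2* in each replicate. It held 1 CTCF match along its length, away from the summits. The motif AGGTGTG of TBX5, a cardiac T-box factor, occurred 2 times in it, of which 1 in the 300 bp around the summits. Of all shared regions 5.03% held that motif at the summits, and 10 of the 214 regions of the loci (4.67%) did. The stretch chr7:142611071-142611370 (plus strand) holds both summits, lies in no annotated exon, and was chosen for this motif after its values were seen, with the AGGTGTG match (plus strand) in capitals.
Igf2-H19 middle: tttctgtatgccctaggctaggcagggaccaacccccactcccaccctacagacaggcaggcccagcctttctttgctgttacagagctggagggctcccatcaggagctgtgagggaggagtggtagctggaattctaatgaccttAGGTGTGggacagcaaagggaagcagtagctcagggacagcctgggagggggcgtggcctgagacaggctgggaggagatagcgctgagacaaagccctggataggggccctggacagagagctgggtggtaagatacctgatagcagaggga

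**Figure D2:**
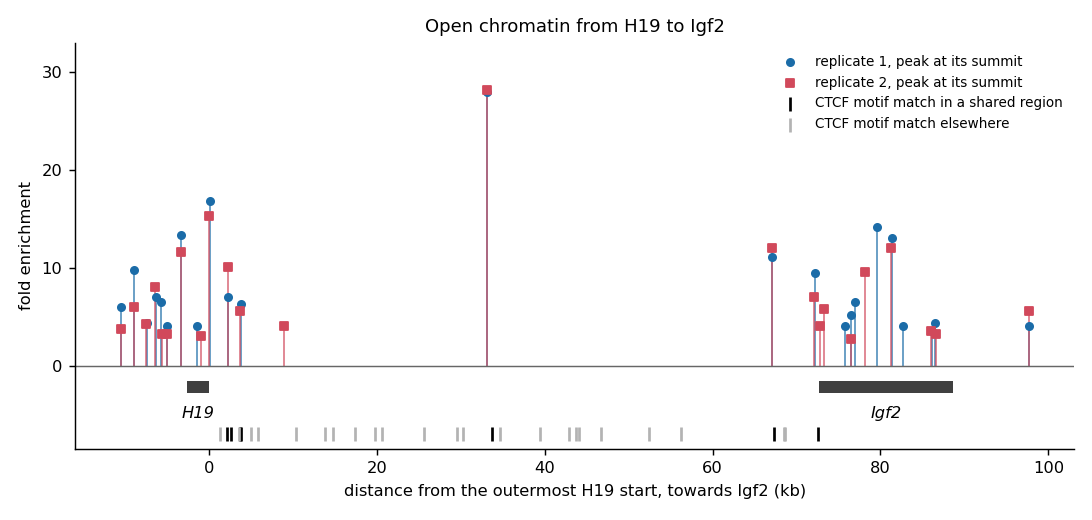
Peaks from downstream of *H19* to beyond *Igf2*, each drawn at its own summit with its fold enrichment (y axis), by distance from the outermost *H19* start in kb (x axis), with replicate 1 as circles and replicate 2 as squares. Dark bars are the gene bodies, ticks are CTCF motif matches between the genes (black in a shared region, grey elsewhere); the peaks at 33.1 kb reach 28.0 and 28.2.

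*Igf2r* encodes a receptor that carries IGF2 to the lysosome and is expressed mainly from the maternal copy in mouse. The gene (ENSMUSG00000023830.14, chr17:12682406-12769664, minus strand) had its highest start region at the outermost start, with 21.2 and 23.4 and summits 26 bp apart. The start of *Igf2r*-202, 18864 bp downstream, had 6.52 and 6.03, and no peak in either replicate was found at *Igf2r*-203. *Airn*, the antisense RNA through which the paternal copy of *Igf2r* is silenced, starts in intron 2 of *Igf2r*. Its start had a shared region from 12740970 to 12742916 with 16.6 and 15.1, a lower value than the *Igf2r* start in both replicates. That region held 8 matches to TGCCGC, the motif of ZFP57, searched on both strands, over its 1947 bp, which is 4.11 per kb. Of 4007 regions at protein-coding starts of like length (80% to 125% of it), 67.8% held at least 1 match and 0.225% held 8 or more. The stretch chr17:12742163-12742462 (plus strand), in the first intron of *Airn* and in intron 2 of *Igf2r*, is the 300 bases of the region outside exons with the most matches, 3, shown in capitals on either strand. Both summits of the region lie outside this stretch.
Airn start: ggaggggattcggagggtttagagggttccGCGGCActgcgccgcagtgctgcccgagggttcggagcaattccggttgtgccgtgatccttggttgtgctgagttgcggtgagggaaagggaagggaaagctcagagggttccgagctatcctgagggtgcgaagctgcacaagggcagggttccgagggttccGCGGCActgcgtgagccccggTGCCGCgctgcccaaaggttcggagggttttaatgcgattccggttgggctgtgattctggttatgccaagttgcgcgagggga

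The *Igf2r* locus was dense in open chromatin, with 50 shared regions in 187.3 kb, 30 of them in the gene body. Strong regions away from starts included one in the *Igf2r* body 45.5 kb downstream of the start (20.1 and 19.9). Upstream, the start of the lincRNA gene *CT030636.1* had 29.6 and 19.6, a gap between replicates wider than at the highest start region of any of the 10 genes. *CT030636.2* had 12.8 and 12.1 at its start. *Gm23833*, a small RNA gene, shares the *Igf2r* start region.

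*Grb10* encodes an adaptor protein that dampens signals of the insulin and IGF1 receptors. The gene (ENSMUSG00000020176.17, chr11:11930508-12038683, minus strand) uses different promoters on its parental copies, the maternal transcript in most tissues and the paternal transcript in neurons. Its highest start region, from 12036224 to 12038433, had 23.9 and 25.6, with summits near *Grb10*-201. A second promoter, 10712 to 12359 bp downstream at *Grb10*-209, *Grb10*-207 and *Grb10*-203, had a shared region from 12025399 to 12027054 with 18.5 and 14.6, below the first in both replicates. Inner starts also had regions within 1 kb, with 12.5 and 13.8 at *Grb10*-204. The region nearest the start of *Grb10*-205 had 5.70 and 5.03, and a higher one of 19.01 and 15.3 reached to within 1 kb of it but had its summits farther away, at 11958662 and 11958650. In contrast, *Grb10*-208 had no peak and *Grb10*-202 had one of 3.52 in replicate 2 only. Both promoter regions held ZFP57 matches, 5 in the first and 4 in the second, and 5.03% of 3079 regions of like length at protein-coding starts held 5 or more. The stretch chr11:12036871-12037170 (plus strand), 82.0% GC with 52 CpG, is the 300 bases of the first region outside exons with the most matches, 3, in capitals on the plus strand. Both summits of the region lie outside this stretch.
Grb10 start: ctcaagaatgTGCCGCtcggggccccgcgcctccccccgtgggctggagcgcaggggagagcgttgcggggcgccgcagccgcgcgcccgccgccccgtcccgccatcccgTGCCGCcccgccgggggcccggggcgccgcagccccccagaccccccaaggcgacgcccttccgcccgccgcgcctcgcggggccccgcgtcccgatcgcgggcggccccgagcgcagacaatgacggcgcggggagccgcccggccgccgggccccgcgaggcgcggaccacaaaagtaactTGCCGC

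The *Grb10* locus held the most regions of the 10, 56 in 208.2 kb, and 44 of them lay in the gene body. Its highest mean stood outside the gene, 137.0 kb downstream of the outermost start, with 29.9 and 21.4, although the *Grb10* start region was higher in replicate 2. In all, 18 regions of the locus had a mean fold enrichment of at least 10. A run of strong regions lay in the body from 65.2 to 85.9 kb downstream, where 76.6 kb (20.1 and 17.6) was highest in replicate 1 and 74.9 kb (13.9 and 19.1) in replicate 2. Of the 56 regions, 16 (28.6%) held the GATA motif AGATAA in 300 bp at the summits, beside 22.2% of all shared regions, 12 (21.4%) the TEAD motif GGAATG, beside 20.4%, and 5 (8.93%) the TBX5 motif, beside 5.03%. CTCF stood in 6 regions (10.7%), beside 13.6%, ZFP57 in 5 (8.93%), beside 8.69%, and YY1 in 2 (3.57%), beside 4.21%. *Ddc*, an imprinted neighbour that encodes an enzyme of dopamine and serotonin synthesis, had 4.35 and 6.79 at its highest start region inside the locus and 23.9 and 20.6 at a start beyond it.

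*Cdkn1c* encodes p57KIP2, an inhibitor of the cell cycle expressed from the maternal copy. The gene (ENSMUSG00000037664.13, chr7:143458339-143461050, minus strand) had a shared region at all 5 starts, and a single region of 2539 bp from 143459038 to 143461576 spanned its outermost start and most of the gene, short of the 3′ end. It had 27.2 and 33.4 with summits 25 bp apart, 99 and 132 reads at the summit, and 38 CpG in 300 bp at the summits. The antisense gene *Gm44732* starts in the same region. Upstream, a region at 4.1 kb had 9.51 and 9.30, and 8 further regions of the locus had values of at most 5.43 and 6.28. The remaining one was a short overlap of a replicate 1 peak of 4.35 with the edge of the replicate 2 start peak. *Phlda2*, a maternally expressed gene that restrains growth of the placenta, had 5.43 and 5.03 at its start.

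*Dlk1*, which encodes a transmembrane protein of the Notch ligand family expressed from the paternal copy, and *Meg3*, a maternally expressed long noncoding RNA, lie in 1 imprinted cluster on chromosome 12. *Dlk1* (ENSMUSG00000040856.17, chr12:109452823-109463336, plus strand) had a shared region at all 9 starts, the main one with 7.06 and 8.55. It was low although it held 42 CpG in 300 bp, the most among the highest start regions of the 10 genes. Higher values stood upstream of *Dlk1*, 13.04 and 13.3 in a region of 2019 bp at 14.9 kb and 13.6 and 9.80 at 35.0 kb. *Meg3* (ENSMUSG00000021268.17, chr12:109541001-109571726, plus strand) had a region at 5 of 11 starts, with 7.61 and 6.79 at the outermost start, which *Gm27596* shares, and 7.88 and 7.54 at 2.0 kb. No peak in either replicate stood at its other 6 starts.

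The germline control region of the cluster lies between *Dlk1* and *Meg3*. The 50 kb upstream of *Meg3* held 5 shared regions, from 28.0 kb (7.33 and 5.53) and 23.9 kb (5.70 and 4.27, at the start of *Gm34081*) to 13.4 kb (7.88 and 4.53), 9.1 kb (3.53 and 3.77, at the start of *Gm27528*) and 5.7 kb (3.80 and 4.53). The regions at 28.0 and 13.4 kb stood at the 51.6 and 49.2 percentiles of all shared regions and the other 3 lower, and no region of the *Meg3* locus reached a mean of 10. Downstream, the starts of the microRNA genes *Mir136* and *Mir3071* had 4.35 and 5.53 and that of *Mir432* had 4.35 and 3.77. The genes *Mir770*, *Mir1906-1*, *Gm26906* and *Gm27300* overlap the *Meg3* body without a shared region at a start.

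*Mest* encodes a hydrolase-like protein expressed from the paternal copy. The gene (ENSMUSG00000051855.15, chr6:30723547-30748465, plus strand) had a region at 3 of 10 starts, and these 3 lie within 5 bp of each other, 14503 to 14508 bp inside the annotated gene. The region from 30737777 to 30738333 had 8.42 and 7.29, and the next one upstream, at 13.5 kb, had 7.06 and 5.78. Its edge reached to within 1 kb of the starts of *Gm27568* and *Gm44296* at 12.4 kb, and another shared region, from 30736479 to 30736733, lies nearer to them. No peak stood at the outermost start in either replicate. The start region held 6 ZFP57 matches in 557 bp, 10.8 per kb, the most per length of the 4 regions printed for this motif. Of 2509 regions of like length at protein-coding starts, itself included, 23.2% held at least 1 match and 0.04% held 6 or more. The stretch chr6:30737777-30738049 (plus strand) ends at the base before the first of these 3 starts and carries 2 of the matches, in capitals on the minus strand. Of the summits it holds only that of replicate 1.
Mest start: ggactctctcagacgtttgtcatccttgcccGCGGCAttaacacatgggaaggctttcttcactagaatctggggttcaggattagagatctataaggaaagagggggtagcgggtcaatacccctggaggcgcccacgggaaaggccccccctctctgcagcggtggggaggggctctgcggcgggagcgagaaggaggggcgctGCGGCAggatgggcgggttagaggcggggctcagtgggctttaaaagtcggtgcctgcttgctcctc

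The start of *Cep41*, a gene of a centrosomal protein 29.8 kb upstream of the outermost *Mest* start, had 22.5 and 27.4, above every other region of the *Mest* locus in both replicates. *Gm13782* in the same neighbourhood had 3.80 and 5.03. *Copg2*, *Mir335* and *Gm27522* overlap *Mest* and had no shared region at a start within the locus, but *Copg2* had 38.6 and 34.2 at a start beyond it.

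*Peg3* encodes a zinc finger protein expressed from the paternal copy. The gene (ENSMUSG00000002265.16, chr7:6703892-6730431, minus strand) had the highest region of the 10 loci, 4189 bp long from 6727035 to 6731223, longer than 99.9% of shared regions. The summits held 160 and 161 reads, lay 125 bp apart at 6728672 and 6728797, and fell in intron 1, 1.7 kb inside the gene rather than at the start. *Usp29*, a paternally expressed gene transcribed in the opposite direction, and *Gm27675* start in the same region, so its signal cannot be assigned to 1 gene. The first intron of *Peg3* is known for a cluster of sites of the zinc finger protein YY1. The region held 12 matches to GCCATNTT on either strand, 2.86 per kb, beside a median of 0 and a highest count of 6 in the other regions of at least 3000 bp (495 regions in all). In 300 bp at the summits it held 1 match, beside 4.21% of all shared regions and 7 of the 214 regions of the loci (3.27%) with any. It also held 8 ZFP57 matches, 1.91 per kb, beside a median of 0.541 per kb over the 495 regions and a highest count of 12 in the others. The stretch chr7:6728226-6728525 (plus strand) in intron 1 has the most YY1 matches of any 300 bases of the region outside exons, 3, all on the minus strand and in capitals. Both summits of the region lie outside this stretch.
Peg3 intron 1: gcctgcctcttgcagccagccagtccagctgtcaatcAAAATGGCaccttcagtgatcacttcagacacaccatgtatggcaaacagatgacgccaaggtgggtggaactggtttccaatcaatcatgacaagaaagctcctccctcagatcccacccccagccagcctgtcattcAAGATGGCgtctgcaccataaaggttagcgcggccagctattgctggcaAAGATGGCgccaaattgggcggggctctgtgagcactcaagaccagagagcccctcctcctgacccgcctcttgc

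*Zim1*, a maternally expressed zinc finger gene 34.0 kb downstream of the *Peg3* start, had 38.3 and 36.2 at its start, the second highest value of the 10 loci. In the other direction the body of *Usp29* held regions at 14.2 kb (16.8 and 13.8), 35.0 kb (11.4 and 12.1) and 47.5 kb (22.3 and 22.1) from the *Peg3* start. *Gm44863* had 5.70 and 5.28 at its start.

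*Plagl1* encodes a zinc finger transcription factor that restrains the cell cycle and is expressed from the paternal copy. The gene (ENSMUSG00000019817.18, chr10:13060504-13131694, plus strand) had a shared region at 10 of 11 starts, 8 of which lie together 30187 to 30509 bp inside the annotated gene. The region there, from 13090421 to 13091242, had 22.5 and 18.6 with summits 22 bp apart, and *Gm27741* starts in it. The outermost start had 4.07 and 3.52, and the start of *Plagl1*-222, 55860 bp inside, had 11.1 and 11.1. Between the outermost start and the main promoter, a region at 16.5 kb had 17.7 and 18.1. The start region held 5 ZFP57 matches in 822 bp, and 0.278% of 3235 regions of like length at protein-coding starts held as many. The stretch chr10:13091025-13091242 (plus strand), in the intron after the first exons, carries 3 of them, in capitals on the plus strand. Both summits of the region lie outside this stretch.
Plagl1 start: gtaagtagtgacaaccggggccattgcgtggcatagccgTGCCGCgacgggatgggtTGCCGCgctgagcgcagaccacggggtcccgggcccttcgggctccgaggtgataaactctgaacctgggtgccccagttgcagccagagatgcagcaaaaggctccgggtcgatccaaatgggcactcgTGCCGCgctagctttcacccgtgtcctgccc

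**Figure D3:**
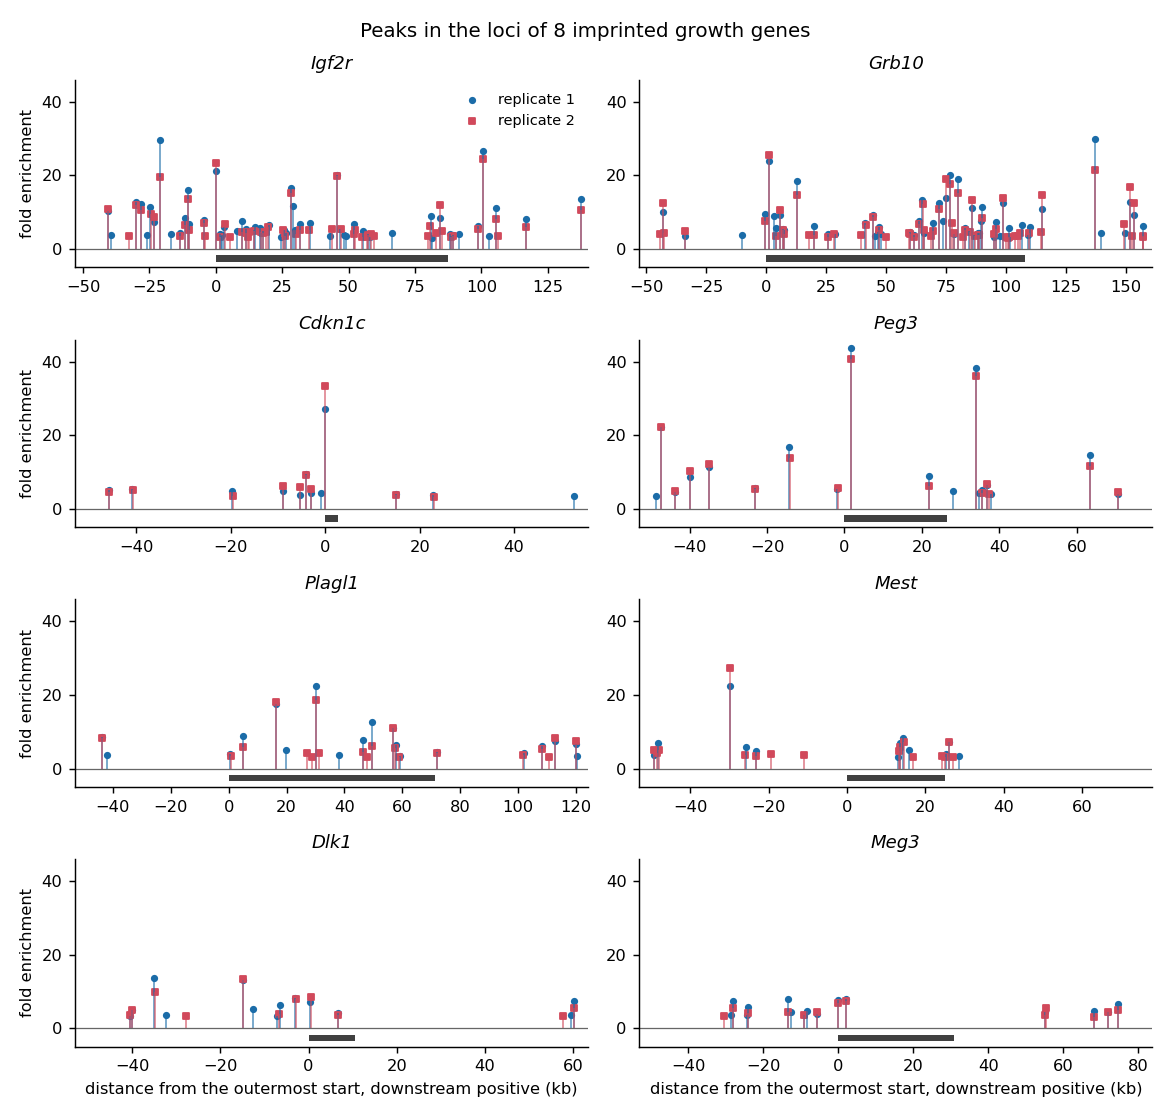
Peaks of both replicates in the loci of *Igf2r*, *Grb10*, *Cdkn1c*, *Peg3*, *Plagl1*, *Mest*, *Dlk1* and *Meg3*, each at its summit with its fold enrichment (y axis), by distance in kb from the outermost start, downstream positive (x axis); replicate 1 is drawn as circles, replicate 2 as squares and gene bodies as dark bars. *Igf2r* and *Grb10* have many peaks in the body, with gaps between them, *Cdkn1c* has 1 high region at its start, and *Peg3* has its start region and that of *Zim1*.

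Over the 10 loci together, 214 distinct shared regions lay in 1331.0 kb, or 16.1 per 100 kb. All 10 loci held at least 1 shared region, as did 87.9% of the loci of protein-coding genes. The density of each was above 5.41 per 100 kb, the median of protein-coding gene loci, and 9 of 10 were above the upper quartile of 8.95. *Grb10* (26.9) and *Igf2r* (26.7) stood above 99.8% of protein-coding gene loci and *H19* (19.5) above 98.4%, and *Dlk1* was the lowest with 8.14. Where overlapping peaks of both replicates were joined into 1 region, *Grb10* and *Igf2r* stood at the 99.7 percentile and *H19* at 98.8, and *Igf2* fell from 12.1 to 7.76 per 100 kb. In that form 7 of 10 loci, without *Igf2*, *Dlk1* and *Mest*, were above the upper quartile of protein-coding gene loci, 8.20. Of the 214 regions, 56 lay within 1 kb of a start of any gene and 158 farther away, and 54 had a mean fold enrichment of at least 10. Replicates called 42 and 33 peaks in the loci that were not shared, with fold enrichments of at most 6.52 and 4.53.

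**Figure D4:**
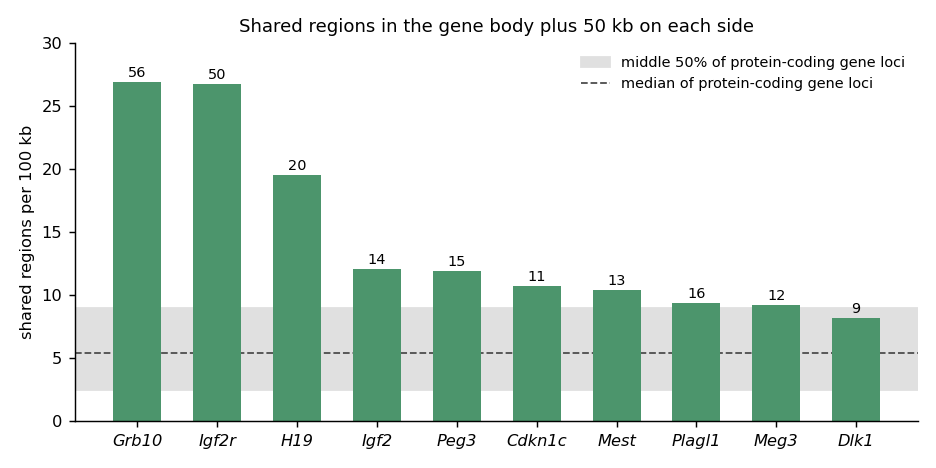
Shared regions per 100 kb in the gene body plus 50 kb on each side (bars, from 0), with the number of regions above each bar. The grey band is the middle 50% of protein-coding gene loci (2.42 to 8.95) and the dashed line their median, 5.41; all 10 bars rise above that line.

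The sequence of the start regions varied as much as their signal. CpG dinucleotides in 300 bp at the summits numbered from 8 in *Peg3* to 42 in *Dlk1*, beside a middle 50% of 7 to 30 in regions at protein-coding starts. *Cdkn1c* and *Grb10* held 38 each and *Igf2r* 34, above that range, and the other 6 lay within it. Among these windows *Peg3* had the highest fold enrichment with the fewest CpG, but its window lies in intron 1, 1.7 kb from the start. *Dlk1* had one of the lowest with the most. *Cdkn1c*, *Grb10*, *Igf2r* and *Plagl1* (24 CpG) lay above the medians of regions at protein-coding starts in both measures, 19 CpG and 16.1. *Igf2* and *Meg3* (14 CpG) lay below both. *Mest*, with 22 CpG, was above in CpG only, and *H19*, with 15, stood at the fold median.

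**Figure D5:**
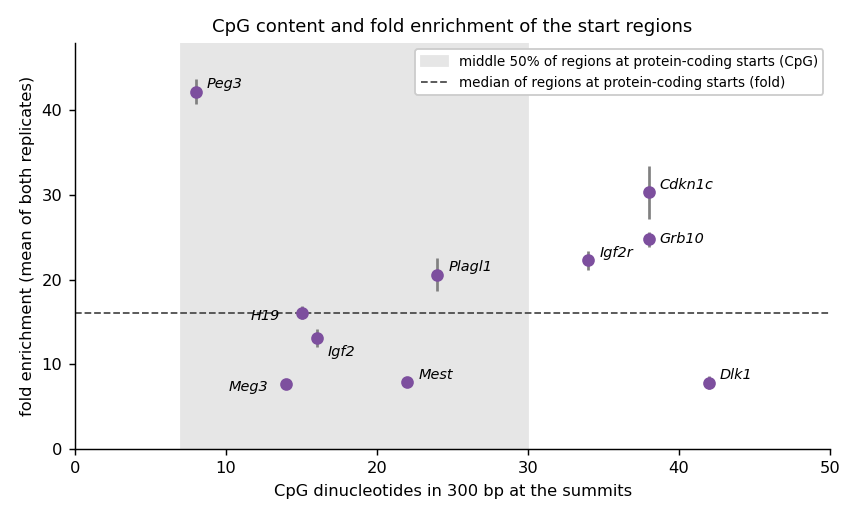
Mean fold enrichment of each gene's highest start region (y axis; vertical lines join both replicates) against the number of CpG dinucleotides in 300 bp centred between its summits (x axis). For *Igf2* that window holds neither summit. The grey band is the middle 50% of regions at protein-coding starts (7 to 30 CpG) and the dashed line their median fold enrichment, 16.1; *Peg3* lies at 8 CpG and *Dlk1* at 42.

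In the highest start region of each gene, a ZFP57 match stood in 300 bp at the summits of 3 genes, *Mest*, *Grb10* and *Plagl1*, beside 21.3% of regions at protein-coding starts. Along the whole of that region *Cdkn1c* had 3 matches and *Igf2r* and *Dlk1* 1 each, while *Igf2*, *H19* and *Meg3* had none there. A lower start region held 1 match in *Meg3*, at its outermost start, and 1 in *Igf2*, from 142660350 to 142661006. Upstream of *H19*, the region at 2.3 kb held 3 ZFP57 matches and that at 3.8 kb held 1. The comparison with regions of like length was made only for the regions printed for this motif, and those were not matched for CpG or GC. Over the loci 19 of 214 regions (8.88%) held a match at the summits, beside 8.69% of all shared regions. GATA matches stood in 47 (22.0%), beside 22.2%, and TEAD matches in 45 (21.03%), beside 20.4%. For each of the 6 motifs the share in the loci was within 1 percentage point of that in all shared regions, and the runs of matches at *Peg3*, *Mest* and *Airn* stood in single regions. Overlaps between different motifs were searched in the printed stretches, and no base of a match in capitals belonged to another of the 6 motifs.

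Genes related to the 10 by imprinting or by pathway were read from lists. Of 51 other imprinted genes, 42 had a shared region at a start (82.4%), beside 67.6% of protein-coding and 25.5% of lincRNA genes, with a median of the highest region of 18.3. *Inpp5f* (48.3 and 47.0), *Ube3a* (48.1 and 47.0) and *Usp29* were the highest. No shared region was found at a start of *Slc22a18*, *Ins2*, *Slc22a2*, *Rtl1*, *Rian*, *Mirg*, *Zfp264*, *Ndn* or *Kcnk9*. Of these, *Rtl1*, *Rian* and *Mirg* belong to the *Dlk1* and *Meg3* cluster and *Ins2*, an insulin gene, is the neighbour of *Igf2*. Of 23 genes of the IGF pathway, 20 had a shared region at a start (87.0%, beside the same 67.6%), with a median of 21.4. These medians take the highest region per gene, whereas the median of 16.1 given above is over all regions at protein-coding starts. Among the highest were *Irs2*, which relays receptor signals (46.7 and 42.5), and *Insr*, the insulin receptor (39.1 and 40.0). *Igfbp1*, *Igfbp6* and *Grb7* had none. The gene of the other ligand, *Igf1*, had 12.2 and 10.3, close to *Igf2*, and *Igf1r*, the receptor that transmits the signal of both ligands, had 34.0 and 31.7.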

How the data were processed

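ATAC-seq peaks of 2 replicates of WT FVB hearts at E11.5 were used. Per the submitters' processing notes, single-end reads were trimmed with Trim Galore 0.6.6, aligned to mm10 with Bowtie2 2.4.2 and handled with SAMtools 1.12, and the authors called peaks with MACS2 in each replicate. The deposited lists give each peak's fold enrichment at the summit, a ratio, with −log10 p and q values, a display score and the summit offset; total read numbers are not given there. The lists begin at −log10 p of 3.32 and 2.98 and at a peak length of 200 bp, stricter and longer than the p limit and the read extension that the study states, so the limit behind an absent peak is not known. Each step of the fold enrichment was taken as 1 read, which gave the reads at a summit, and 100% came out whole within 0.05 reads.

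Overlaps of at least 1 bp defined shared regions (Python 3.11.15, pandas 2.3.3, NumPy 2.4.6, pysam 0.24.0, Matplotlib 3.10.9), and the overlap code was tested on simulated data and checked with bedtools 2.31.1. Starts within 1 kb and loci with 50 kb of flank came from GENCODE M21, and sequence from the RefSeq copy of GRCm38. Motifs were exact matches on both strands. Windows of 300 bp at the summits were centred on the midpoint between the replicate summits. The text names, by rule, the 10 genes, every other gene in their loci that overlaps a member or has a shared region at a start, and from the lists of other imprinted and IGF pathway genes the 3 highest genes and those without a region; *Igf1* and *Igf1r* were added after their values were seen. Results of 2 genes that the rule would name are not reported here. Members and lists were chosen with earlier results of these data known. With 1 group no test was run. The study describes biological replicates, each from a pair of hearts, but does not say whether they came from separate litters. How much of the spread between them is technical is not known. Alternatives varied the overlap, the p and q limits, the start window, the flank, the annotation set and the replicates used, and joined regions were added after seeing the data.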

Additional observations from a re-analysis of the deposited data

How the results depend on the processing

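Limits and alternatives were read as values, with no test. No paired analysis was possible because both replicates belong to 1 group. The number of the 10 genes with a region at a start was 9 to 10 in every alternative run. Of 72 alternative values of the main counts and medians, 67 stayed within the margin set for them and 5 moved. Shared regions in the loci numbered 214, 91 at a q-value of at most 1e-10 and 106 without flank. Starts with a region numbered 58 of 78, and 24 of 29 in the basic annotation set. The median of the highest fold enrichment at a start was 18.3, 20.6 with reciprocal overlap of 50%, where *Igf2* had no region, and 16.1 with summits inside the window, where *Peg3* had none because its summits lie 1.7 kb from the start. With each replicate alone, starts with a peak numbered 59 to 60, peaks in the loci 231 to 234, those between *Igf2* and *H19* 6 to 7, the median highest value 16.97 to 19.01, genes at a start 10, other imprinted genes 42 and IGF pathway genes 20 to 21. Of 188 values of single genes, 35 moved. These 188 leave out *Igf2* with reciprocal overlap of 50% and *Peg3* with summits inside the window, which had no value there. The margin was a fixed ratio for counts and the standard deviation between the replicates for fold enrichments. The lists hold about 20 reads at a median summit (20 and 19), so regions near 9 reads may be missed in 1 replicate by counting error, and an absent peak means not detected at this depth.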
